A study of Mus musculus with 4 samples.

Results

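Among nuclei taken from mouse retina there is a population of fibroblasts that carries RNA of Myoc and Angpt1, 2 genes of the outflow tissue and vessels of the eye. It was chosen by UMI counts (unique molecular identifiers, 1 per captured RNA molecule) in each barcode. A nucleus belongs to it when the fibroblast genes Col1a1, Col1a2, Col3a1, Col6a3, Dcn, Lum and Pdgfra together held at least 3 UMIs with at least 2 of them detected, and when Myoc, Angpt1, Itgbl1, Mgp and Adamtsl3 together held at least 3 UMIs and more than Rspo2, Edn3, Dkk2, Adamts16 and Aox3. At most 2 UMIs of the neuron genes Gad1, Slc6a9 and Slc17a6, at most 1 UMI of the endothelial genes Pecam1 and Cdh5 and at most 5% mitochondrial UMIs were allowed. In all, 965 of 32326 barcodes met the rule: 279 and 170 in the 2 libraries of 2.5 months and 120 and 396 in the 2 libraries of 5 months. They are called Myoc and Angpt1 fibroblasts here. The mirror rule, with the other 5 genes in the lead, gave 535 Rspo2 and Edn3 fibroblasts, and 315 fibroblast nuclei met neither.

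The study profiled nuclear RNA by the 10x droplet method in 4 libraries, each from the left eye of 1 mouse. The 2.5-month animals are labelled wild type, no genotype is given for the 5-month animals, and no allele, treatment or dissection detail is stated for either group. The labels number the donors 1 and 2 at each age, and nothing ties a number to the same animal or litter. The series text names an eye bank and its title names human tissue, so this description may not concern these mice. The counting software was Cell Ranger 7.1.0 for the younger pair of libraries and 4.0.0 for the older pair, so an effect of age and one of the version cannot be told apart.

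Fibroblasts of the eye come largely from the neural crest and build the sclera, the choroid, the cornea, the meninges of the optic nerve and the drainage tissue at the front of the eye. Myoc encodes myocilin, a secreted glycoprotein that is abundant in the trabecular meshwork and is mutated in a form of open-angle glaucoma. Angpt1 encodes angiopoietin 1, the ligand that activates the receptor Tie2 (Tek) on endothelium and that is needed for the drainage vessel named Schlemm's canal. Fibroblasts are not a cell type of the neural retina itself. The tissue from which these nuclei came is not stated and was not tested.

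The members held 1100260, 710208, 456630 and 1162847 UMIs in the libraries of 2.5 months donor 1, 2.5 months donor 2, 5 months donor 1 and 5 months donor 2. Series of 4 values below always follow this order. Median UMIs per member were 3079, 3446, 3017.5 and 2211. No member barcode was shared between libraries. Rod genes were present throughout, as in retina: the rod list of 8 genes summed to 3010 to 4427 CPM (UMIs per 1000000 UMIs of the summed nuclei) in the members and to 3987 to 8335 CPM in all other nuclei. Of the members, 38 had fewer than 3 UMIs in every marker list that was screened for another cell type. The screened lists were those of rods, Müller glia, pigment epithelium, melanocytes, and smooth muscle and pericytes. Striated muscle, endothelium, Schwann cells, immune cells, lens, and corneal and conjunctival epithelium were screened too. The neuron list and the lists of neighbouring tissues were not. One library stood apart: of the 160 members in the most numerous subgroup described below, 156 came from donor 2 of 5 months. Another 234 members (24.2%) fell into 5 subgroups led by genes of photoreceptors, pigment cells, glia or neurons. Counts between the classes, and levels in which subgroup 1 weighed most, are also given without these sets.

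The values that chose the members come first, as a description. Myoc lies on chromosome 1 at 162639155 to 162649693, plus strand (GRCm38, the assembly of mm10; GENCODE M21), where the opposite-strand gene Myocos overlaps it. It stood at 1091, 463, 677 and 1236 CPM in the members and at 55.1, 25.2, 24.1 and 34.0 CPM in the Rspo2 and Edn3 fibroblasts. All other nuclei held 16.0, 7.99, 3.07 and 8.28 CPM of it. The members thus held the most Myoc of the 3 classes in every library, and their own levels varied between donors of the same age. Without subgroup 1 Myoc stood at 1091, 463, 675 and 700 CPM in them. The strand setting that would separate Myoc from Myocos is not given in the sources used here.

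Angpt1 (chromosome 15, 42424723 to 42676977, minus strand, overlapped on the other strand by Gm17473) stood at 1352, 2351, 1739 and 1007 CPM in the members. The Rspo2 and Edn3 fibroblasts held 180, 268, 112 and 109 CPM of it. Itgbl1 (chromosome 14, 123659971 to 123975618), which encodes a secreted protein with integrin-like EGF repeats, was at 2312, 2080, 1826 and 1022 CPM against 704, 754, 451 and 513 CPM. Itgbl1 was the one gene of its set of 5 whose lead over the other fibroblasts stayed below 2-fold in a library, at 1.99-fold in donor 2 of 5 months.

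Mgp (chromosome 6, 136872435 to 136875823), matrix Gla protein, an inhibitor of calcification, was at 1064, 617, 611 and 3172 CPM in the members against 165, 126, 67.8 and 218 CPM. Adamtsl3 (chromosome 7, 82335694 to 82614450), an ADAMTS-like matrix protein without a protease domain, was at 942, 1029, 828 and 427 CPM against 211, 104, 114 and 52.5 CPM. In donor 2 of 5 months Mgp was at its highest and Angpt1, Itgbl1 and Adamtsl3 at their lowest. Without subgroup 1 Mgp was at 1064, 617, 520 and 2137 CPM.

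The opposing genes of the rule were lower in the members but far from absent. Rspo2, an amplifier of Wnt signalling, stood at 50, 90.1, 70.1 and 68.8 CPM in the members against 1010, 829, 740 and 662 CPM. Edn3 (endothelin 3) was at 199, 204, 252 and 474 CPM against 699, 706, 615 and 1166 CPM, and Dkk2, a Wnt modulator, at 593, 752, 611 and 396 CPM against 1852, 1794, 1309 and 1235 CPM. Adamts16, a secreted protease, differed most, being 19.8 to 41.7 times higher in the other fibroblasts. Edn3, Dkk2 and Aox3 (an aldehyde oxidase) remained 35.9 to 136 times higher in the members than in all other nuclei.

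**Figure D1:**
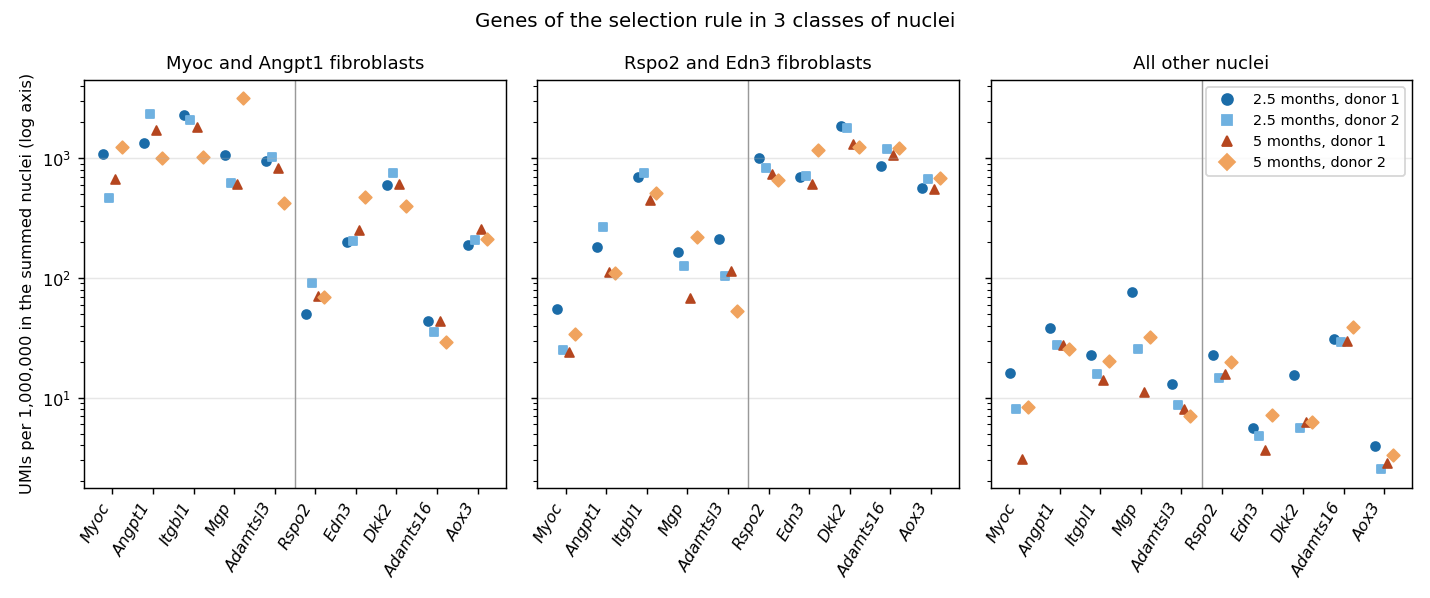
Levels in UMIs per 1,000,000 (log axis) of the 10 genes that separate the fibroblast classes, in 3 classes of nuclei; each symbol is 1 library. The 5 genes left of the line are highest in the Myoc and Angpt1 fibroblasts and the 5 to the right in the Rspo2 and Edn3 fibroblasts, because the classes were chosen on them; Myoc in the members spans 463 to 1236.

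The fibroblast genes themselves did not part the classes alike. Col1a1 was 1.61 to 1.86 times higher in the members than in the Rspo2 and Edn3 fibroblasts and Col1a2 1.66 to 1.86 times, the main chains of type I collagen. Dcn (decorin, a collagen-binding proteoglycan) was 1.49 to 2.62 times higher in the Rspo2 and Edn3 fibroblasts, and Pdgfra, the PDGF receptor of mesenchyme, 1.22 to 2.12 times. All 7 fibroblast genes were at least 26.4 times higher in the members than in all other nuclei of the same library.

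The population was mixed at the level of single nuclei. A Myoc UMI was found in 395 of 965 members (40.9%) and an Angpt1 UMI in 665 (68.9%), against 2.06% and 4.28% of the 30484 other nuclei, whose median depth was 1706 to 2851 UMIs. Both genes were seen in 234 members (24.2%), Angpt1 alone of the pair in 431, Myoc alone in 161 and neither in 139 (14.4%). Of the 5 genes, Mgp gave most UMIs in 250 members, Angpt1 in 246, Itgbl1 in 226, Myoc in 121 and Adamtsl3 in 65. In donor 2 of 5 months Mgp led in 177 of 396 members, while in the other 3 libraries it led in 12 to 47 of 120 to 279. Without subgroup 1 it led in 91 of 240 members of that library. Near the threshold, 82 members had a sum of only 3 or 4 UMIs of the 5 genes and 40 fibroblast nuclei with a leading sum of 2 stayed just outside. The sum led by only 1 or 2 UMIs in 100 members, and 29 fibroblast nuclei with equal sums of at least 3 stayed outside.

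Clustering of the members, without the genes of the rule and the marker lists, gave 12 subgroups of 31 to 160 nuclei, numbered by size. Their leading genes were read from the same nuclei that were clustered, so they are a description and not a test. Counts of list genes raised in a subgroup are a description too. The share of all genes raised in each subgroup was not computed. Myoc and Angpt1 peaked in different subgroups. Subgroup 2 (128 nuclei, 21 to 44 from each library) held 4353 CPM of Angpt1 and 17.2 CPM of Myoc. It was led by Lamc3, a laminin chain, Abcc9, a subunit of potassium channels of mural cells, Pappa2, a protease of IGF-binding proteins, and Tbx18, a transcription factor of mesenchyme. In its libraries Angpt1 was at 2764, 5505, 7798 and 3322 CPM, and Myoc was at 25.8 CPM or less.

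Subgroup 2 also had the highest level of Emcn, an endothelial sialomucin, at 505 CPM. Heyl was among its leading genes as well, at 58.4 CPM against 7.01 CPM in the other members. Of the smooth muscle and pericyte list, Myh11 and Acta2 were at 10.3 and 34.4 CPM in it. Its levels of Rgs5, Kcnj8, Notch3 and Pdgfrb, the pericyte genes of that list, are not reported here, so the list is not settled for this subgroup. In subgroup 4 (102 nuclei) Angpt1 was at 3556 CPM together with Myoc at 900 CPM. Among its leading genes were Ano1, a chloride channel, and Hhip, a hedgehog-binding protein. In subgroup 3 (122 nuclei), led by Rad51b, Kitl (the ligand of the receptor Kit) and the transporter Slc47a1, both genes were present, at 1998 CPM of Angpt1 and 1181 CPM of Myoc.

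Myoc was highest in subgroups 1 and 6. Subgroup 6 (70 nuclei, 33, 16, 9 and 12 per library) held 1834 CPM of Myoc and 5620 CPM of Itgbl1, the highest Itgbl1 level of the 12. It was led by Adamts17, Wisp2, Chad, Gdnf and Col12a1, and Tnmd, Fmod, Comp and Mkx of the tendon and sclera list were raised with Chad, 5 of its 7 genes. Of the trabecular meshwork list, Chil1, Angptl7, Fmod and Fabp4 were raised in it, 4 of 7 genes. The subgroup is left unnamed, since Fmod is in both lists.

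Subgroup 1 held 3071 CPM of Myoc and 6791 CPM of Mgp. Apart from gene models its leading genes were Mmp3, a matrix protease at 722 CPM against 33.2 CPM in the other members, Timp1, a protease inhibitor at 258 against 9.47 CPM, Angptl7 at 319 against 28.7 CPM and Chil1 at 2466 against 292 CPM. Its nuclei had a median of 1414.5 UMIs and 0.705% mitochondrial UMIs, where the medians of the other 11 subgroups were 2157 to 6948 UMIs and 0.120% to 0.232%. Many lists were raised in it: 58 of 79 ribosomal protein genes were at least 2-fold higher than in the other members, with sums of 19164 against 5678 CPM, and 16 of 23 interferon and MHC class I genes, with 2858 against 1036 CPM. Markers of other tissues were raised as well. Of the pigment epithelium list these were Ttr, Lrat, Rdh5 and Rgr, 4 of 6 genes (sums 3416 against 953 CPM), and of the immune list Cd74, C1qa and Lyz2, 3 of 6 (194 against 46.1 CPM). Of the tendon and sclera list 5 of 7 were raised (2406 against 691 CPM), and of the trabecular meshwork list Chil1, Angptl7 and Fmod, 3 of 7 (3530 against 641 CPM). Without the share of all genes raised in subgroup 1, these counts do not show that any list stands out. The part of these other types in the levels of subgroup 1 was not tested. Because 156 of its 160 nuclei came from 1 library, the subgroup cannot be told apart from a trait of part of that library. The profile was not shared by all members of that library. There Timp1 was at 271 CPM in subgroup 1 and at 31.9 CPM or less in every other subgroup. Mmp3 was at 757 CPM, at 537 CPM in subgroup 6 and at 110 CPM or less in the rest. Angptl7 was at 335 CPM, at 226 CPM in subgroup 6 and at 58.2 CPM or less in the rest. The gene model Gm26870 made up 16120 CPM there, and in the same library it stood at 1262 CPM in the Rspo2 and Edn3 fibroblasts, 4516 CPM in the fibroblasts of neither class and 174 CPM in all other nuclei.

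Subgroup 5 (80 nuclei) was led by Ebf2 and Creb5, transcription factors, by Meox2, Clec3b, Dpt (dermatopontin) and Lvrn, and held 464 CPM of Dpp4, which was at 87.0 CPM or less in every other subgroup. Subgroup 7 (69 nuclei) was led by Kynu, Dmgdh, Car3, Slc4a11 and Cldn10. It held 915 CPM of Tfap2b against 19.6 to 323 CPM elsewhere; Dmgdh and Tfap2b are among the genes that were higher in the Rspo2 and Edn3 fibroblasts.

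Subgroups 8 to 12 (61, 59, 46, 37 and 31 nuclei) were led by genes of other types. Pdzph1 was among the leading genes of subgroup 8, in which all 8 rod genes were raised, and Slc26a4, Tyr and Optc led subgroup 9, in which all 6 melanocyte genes were raised. Subgroup 10 showed Aqp4 with all 6 Müller glia genes raised, subgroup 11 Nrg3 and Kcnh7, and subgroup 12 Grik1 and Car10. Subgroups 8 to 12 held 75 of the 76 members called as doublets. All 76 came from the 5-month libraries, and the caller marked 3 and 1 nuclei in the 2.5-month libraries, so it did not work there.

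**Figure D2:**
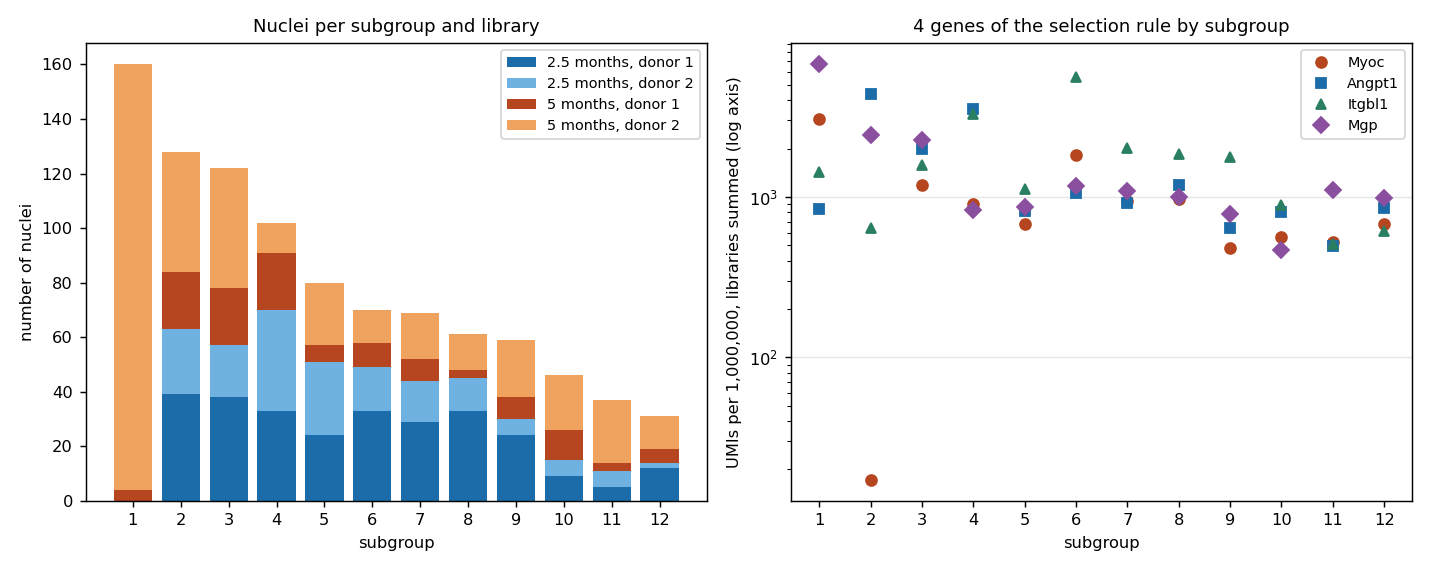
Left, number of nuclei in each subgroup, coloured by library; right, level of 4 genes of the rule in each subgroup in UMIs per 1,000,000 (log axis, libraries summed). Subgroup 1 is almost wholly donor 2 of 5 months (156 of 160 nuclei), and in subgroup 2 Angpt1 is at 4353 while Myoc is at 17.2.

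The members were next compared with the Rspo2 and Edn3 fibroblasts of the same libraries over all genes. Because the classes were chosen on these nuclei, the comparison is a description without a test; a gene was counted when its CPM ratio was at least 2 in the same direction in all 4 libraries and both classes together held at least 50 UMIs. Of 11306 genes compared, 156 (1.38%) were higher in the members and 151 (1.34%) lower. Outside the rule the largest leads, ranked by the smallest of the 4 ratios, were those of Chil1, Hmcn2, Cyp26a1, Meox2, Tspan11, Fndc1, Tbx18, Egfr, Ltbp2, Wisp2, Irx2, Rgs5, Foxd1, Slc6a7 and Runx1. Of these, Meox2 was uneven within the members, at 759 CPM in subgroup 5 against 30.7 CPM in the others.

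Chil1 encodes a secreted chitinase-like protein known from the trabecular meshwork. It was at 285, 161, 276 and 876 CPM in the members against 30.1, 9.46, 6.56 and 76.6 CPM, a lead of 9.49-fold to 42.0-fold, and without subgroup 1 at 418 CPM in donor 2 of 5 months. Egfr, the receptor of epidermal growth factor, was at 1478, 1463, 1605 and 1189 CPM against 221, 315, 199 and 261 CPM. Every library of the members lay above every library of the other class for Egfr, with a lead of 4.56-fold to 8.06-fold within libraries. Fndc1, a secreted fibronectin-domain protein, was at 770, 759, 657 and 496 CPM against 108, 155, 98.5 and 79.4 CPM. Cyp26a1, which degrades retinoic acid, was at 32.7, 21.1, 30.7 and 61.9 CPM against 5.01, 3.15, 4.38 and 9.93 CPM. In the other class Cyp26a1 rested on few UMIs in every library. Chil1 did so there in donor 2 of 2.5 months and donor 1 of 5 months. The size of these leads is therefore uncertain.

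The genes that led in the other direction were Wnt10a, Notum, Kcnq3, Wnt6, Ptn, Dmgdh, Bhmt2, Nampt, Tmem132cos, Tmem132c, Igf1, Enpp2, Rit2, Plcxd3 and Cmbl. Wnt10a, a Wnt ligand, was at 5.45, 4.22, 10.9 and 2.58 CPM in the members against 183, 151, 260 and 406 CPM. Ptn, the growth factor pleiotrophin, was at 333, 266, 318 and 418 CPM against 4844, 3579, 4952 and 7425 CPM, 13.4 to 17.8 times higher in the other fibroblasts of the same library. Kcnq3, a potassium channel subunit, was 18.6 to 70.2 times and Igf1, insulin-like growth factor 1, 9.56 to 18.0 times higher there. The pair Tmem132c and Tmem132cos carries an antisense name, and its members may share reads, as the same strand setting applies.

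**Figure D3:**
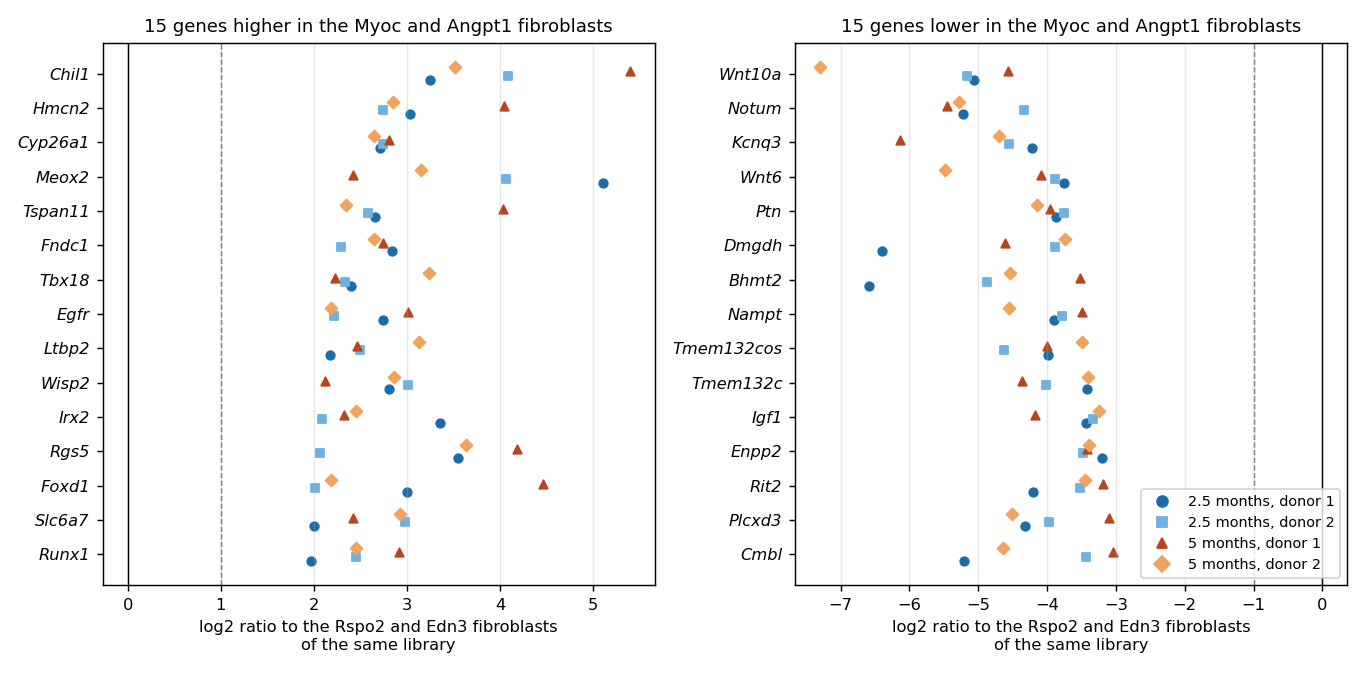
log2 ratio of the level in Myoc and Angpt1 fibroblasts to that in Rspo2 and Edn3 fibroblasts of the same library, for the 15 genes with the largest consistent lead in each direction; each symbol is 1 library and the dashed line marks 2-fold. All 4 symbols of every gene lie beyond the dashed line; where a class held no UMI the ratio is a bound set at 3 counts.

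Several lists of extracellular matrix genes had members that were higher and none that was lower. Of 17 elastic fibre and microfibril genes compared, 5 were higher in the members and none lower: Fbn2 (fibrillin 2), Fbln2 and Fbln5 (fibulins), Ltbp2, which binds microfibrils, and Mfap5. Fbn2 stood at 623, 679, 504 and 327 CPM against 203, 208, 96.3 and 73.7 CPM, and Mfap5 at 245, 163, 125 and 329 CPM against 35.1, 53.6, 26.3 and 89.3 CPM. Fbn1 and Eln (elastin), the main components of the fibres, were 1.47 to 2.26 times and 1.61 to 2.86 times higher and were not counted. The median of the mean log2 ratio was 0.908 for the list and 0.0147 for all genes compared.

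Matricellular genes, whose secreted products modulate the matrix rather than build it, had 9 of 23 higher and none lower, with a median log2 ratio of 1.48. They were Thbs1, Thbs3, Thbs4, Comp, Tnxb, Ctgf, Wisp2, Smoc1 and Smoc2. Ctgf, the connective tissue growth factor, was at 1880, 1096, 988 and 1385 CPM against 393, 416, 166 and 279 CPM. Thbs1 (thrombospondin 1) was at 535, 349, 166 and 200 CPM against 103, 37.8, 37.2 and 59.6 CPM. The libraries of the members lay above all libraries of the other class for both genes.

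Proteoglycans showed 4 of 16 higher, Fmod, Chad, Gpc3 and Gpc6, and none lower. Fmod (fibromodulin, which binds collagen fibrils) was at 192, 175, 138 and 212 CPM against 25.1, 78.8, 24.1 and 18.4 CPM. Among the proteases and inhibitors 5 of 21 were higher, namely Timp3, the matrix-bound inhibitor, and the proteases Adamts6, Adamts9, Adamts10 and Adamts17. Timp3 stood at 1083, 1245, 1001 and 918 CPM against 413, 486, 333 and 323 CPM. Loxl1, an elastin crosslinking enzyme linked to exfoliation glaucoma, was the 1 of 17 genes of collagen processing that was higher.

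Collagens and basement membrane gave another picture. Col11a1, a chain that seeds fibrils, was higher at 640, 922, 657 and 406 CPM against 226, 199, 56.9 and 80.8 CPM, the 1 of 7 fibrillar collagens counted, and Col14a1 was higher and Col23a1 lower among 11 other collagens. Of 19 basement membrane genes none was higher and 3 were lower: Col4a5, Col4a6 and the laminin chain Lamb1. Col4a6 was at 144, 130, 118 and 89.4 CPM in the members against 759, 779, 536 and 485 CPM.

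Wnt signalling showed the opposite direction. Of 31 Wnt genes compared, 9 were lower in the members and 1 was higher. The lower ones were the ligands Wnt4 and Wnt6, the amplifier Rspo1 with its receptor Lgr4, the nuclear factor Lef1, and Axin2, Nkd1, Notum and Apcdd1, inhibitors of the pathway, of which Axin2 is also a common target of it. Lef1 stood at 13.6, 8.45, 17.5 and 5.16 CPM in the members against 87.7, 114, 136 and 104 CPM, and Axin2 at 13.6, 22.5, 10.9 and 22.4 CPM against 60.1, 56.8, 50.3 and 83.7 CPM. Fzd1, a Wnt receptor, went the other way at 103, 110, 61.3 and 132 CPM against 7.52, 25.2, 21.9 and 35.4 CPM.

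Among angiopoietin and VEGF genes, 2 of 15 were higher and none lower. Pgf, placental growth factor, was at 101, 156, 116 and 176 CPM against 45.1, 31.5, 15.3 and 39.7 CPM. Angptl7, a secreted protein of the trabecular meshwork, was at 50, 9.86, 4.38 and 95.5 CPM against 10.0, 3.15, 2.19 and 4.25 CPM. In donor 2 of 5 months it was at 29.6 CPM without subgroup 1. Its values rested on very few UMIs in every library of the other class. The same held for the members in donor 1 of 5 months, where the lead only just reached 2-fold. The receptor Tek was low in both classes, at 47.3, 38.0, 26.3 and 16.3 CPM in the members. Of 24 PDGF, FGF and IGF genes, Egfr, Pdgfrl, Fgf7 and Igfbp5 were higher and Igf1, Igfbp2 and Hgf lower. Igfbp5, which binds insulin-like growth factors, was at 2696, 3188, 2280 and 3792 CPM against 659, 1227, 608 and 1187 CPM.

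Other signalling lists moved in both directions or little. Gdf10 and Inhba were higher and Bmp7 lower among 27 TGF-beta and BMP genes, with Bmp7 4.85 to 6.99 times higher in the Rspo2 and Edn3 fibroblasts. Of 23 axon guidance genes the ligands Slit3, Sema3d and Ntn4 were higher, and the receptors Robo1, Robo2 and Plxna2 were lower. Slit3 stood at 1027, 1181, 1299 and 546 CPM against 318, 161, 164 and 96.4 CPM, while its receptor Robo2 stood at 328, 242, 394 and 253 CPM against 1534, 1801, 1180 and 923 CPM. Among 18 complement and chemokine genes Cd55 and Il1r1 were higher and C4b, C7 and Il34 lower. No gene of the interferon and MHC class I list (21 compared), the immediate early list (11) or the ribosomal proteins (70) was counted in either direction.

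Transcription factors of mesenchyme had 9 of 37 higher and 1 lower. The higher ones were Foxd1, Foxp2, Tbx18, Eya4, Ebf1, Ebf2, Ebf3, Runx1 and Mkx, the last a regulator of tendon collagen. Ebf2 was uneven within the members, at 2611.6 CPM in subgroup 5 against 67.8 CPM in the others. Tbx18 was at 137 CPM in subgroup 2 against 21.7 CPM in the others. Foxp2 was at 1815, 2056, 1899 and 1051 CPM against 574, 564, 269 and 316 CPM. Tfap2b, a neural crest factor, was at 164, 199, 92.0 and 127 CPM against 1231, 1217, 1068 and 1083 CPM, lower in every library of the members than in any of the other class. Foxc1, a factor needed for the front of the eye, differed little between the classes, at ratios of 0.811 to 0.903.

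Of the 24 genes linked to the anterior segment and glaucoma, Ltbp2, Angptl7, Chil1 and Loxl1 were higher in the members and none lower, next to Myoc itself, which the rule used. Angptl7 was counted from very few UMIs, as given above. Optn, another glaucoma gene, was at 45.4, 36.6, 37.2 and 37.8 CPM in the members and at 50.1 to 54.7 CPM in the other fibroblasts. Piezo2, a mechanically gated channel, was the 1 of 22 contractile and mechanosensing genes that was higher, at 439, 649, 666 and 657 CPM against 203, 202, 96.3 and 126 CPM. Of 17 transport genes Slc26a7, Slc38a2 and Abcc9 were higher. Hsd11b1, which activates glucocorticoids, was the 1 of 15 glucocorticoid genes that was lower, at 16.4, 5.63, 6.57 and 24.1 CPM against 82.7, 59.9, 118 and 160 CPM. Cyp26a1 was the 1 of 12 retinoid genes that was higher, and Aldh1a3, which makes retinoic acid, and Stra6, which takes up retinol, were lower.

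**Figure D4:**
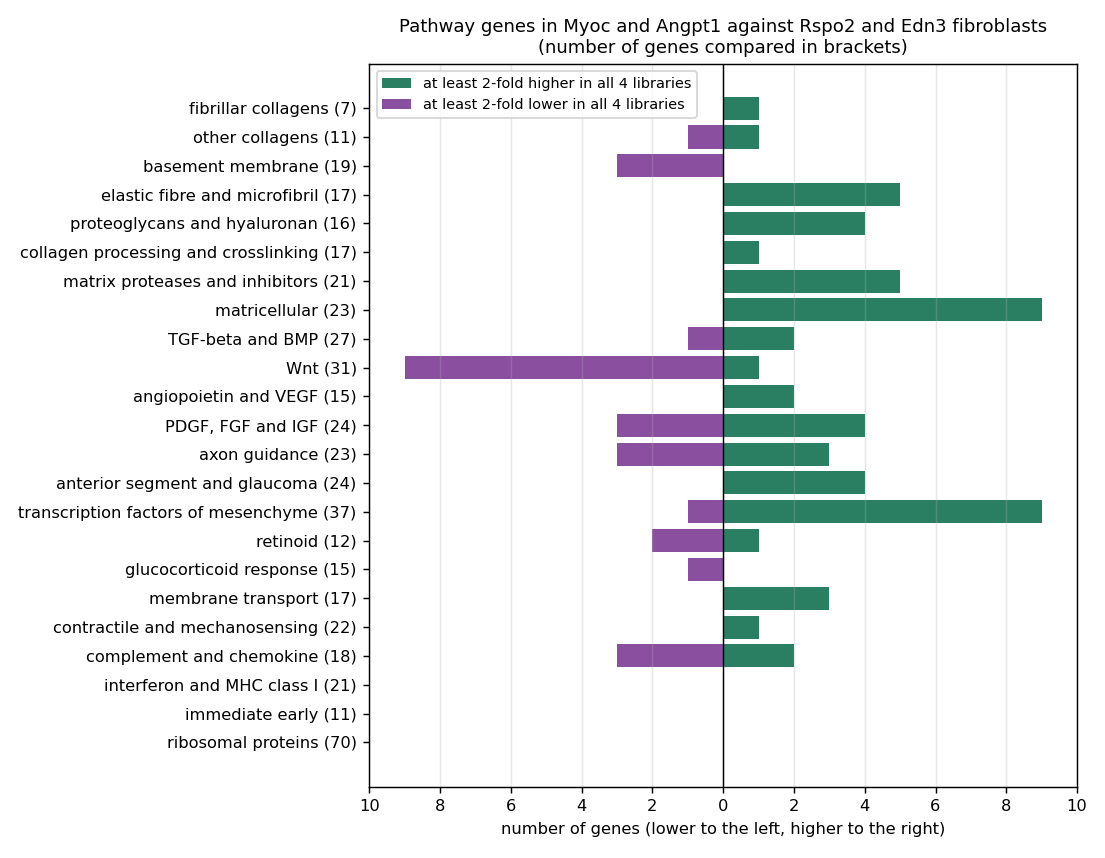
Number of genes of each pathway list that were at least 2-fold higher (right) or lower (left) in Myoc and Angpt1 than in Rspo2 and Edn3 fibroblasts in all 4 libraries; the number of genes compared is in brackets. The matricellular list has 9 of 23 higher and none lower, and the Wnt list 1 of 31 higher and 9 lower.

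Marker lists of neighbouring tissues were read in the same way. All 6 tendon and sclera genes compared (Tnmd, Mkx, Fmod, Chad, Thbs4 and Comp) were higher in the members, with list sums of 910, 552, 749 and 933 CPM against 180, 233, 96.3 and 119 CPM. They were not spread evenly over the members, as most of the list was raised in subgroups 1 and 6. Chad was at 330 CPM in subgroup 6 against 41.3 CPM in the other members, and Fmod held no UMI in subgroup 2. Of the trabecular meshwork list, Chil1, Angptl7 and Fmod were higher among 5 compared, Angptl7 from very few UMIs. No gene of the corneal keratocyte, the arachnoid and meninges or the cartilage and bone list was counted, and of these lists Foxc2, Matn1, Ibsp and Bglap held no UMI in the members.

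Of the smooth muscle and pericyte list, Rgs5 and Notch3 were higher and Myh11 and Acta2 were not counted. The sum of its 6 genes was 645 to 664 CPM in the members, 230 to 406 CPM in the Rspo2 and Edn3 fibroblasts and 108 to 246 CPM in all other nuclei, and none of the 6 was at 0. Emcn of the endothelial list was higher at 148, 155, 129 and 178 CPM against 15, 56.8, 15.3 and 49.6 CPM. The endothelial list summed to 304 to 449 CPM in the members, with Egfl7 at 0, and to 108 to 300 CPM in the other fibroblasts. What nuclei or free RNA of those types contributed was not tested.

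Without subgroup 1, 144 of 11126 genes compared were higher and 148 lower, and 141 of the 156 and 145 of the 151 were shared. Without subgroups 8 to 12, with the Rspo2 and Edn3 fibroblasts left as they were, 209 of 10197 genes compared were higher and 383 lower. Of these, 138 and 115 were shared. Of the 30 named genes, 15 higher and 15 lower remained without subgroup 1, and 14 and 15 without subgroups 8 to 12.

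The list counts were also taken without these sets. Without subgroup 1 the matricellular list (9 higher, none lower), the Wnt list (1 higher, 9 lower) and the transcription factors (9 higher, 1 lower) held the same genes. Fbln5 of the elastic fibre list, Tnmd of the tendon and sclera list, Inhba and Cd55 were no longer counted, and Aspn joined the proteoglycans as the fifth gene. Without subgroups 8 to 12 more genes of any kind were lower, 383 of 10197 against 209 higher. The matricellular list then had 10 of 22 higher, without Comp, and 1 lower, Spon1. The Wnt list had 2 of 28 higher and 9 lower, and the transcription factors 9 of 37 higher and 4 lower. The basement membrane list then had 2 of 18 higher, the laminin chains Lama2 and Lama4, and 4 lower. Among the lower Wnt genes Rspo1 was no longer counted and Dkk3 was counted instead. Aldh1a3, C7, Hgf and Plxna2 were no longer counted as lower in their lists, while other genes joined some of these lists. Of the opposing genes of the rule, Rspo2 and Adamts16 stayed at least 2-fold lower in all 4 libraries, while Edn3, Dkk2 and Aox3 did not.

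Against all other nuclei of the same library, 1380 of 18418 genes (7.49%) were at least 2-fold higher in all 4 libraries and 1052 (5.71%) at least 2-fold lower. Outside the rule the leading genes included Slit3, Tspan11, Fmo1, Epyc, Svep1, Wisp2, Lmx1b, Col14a1, Pi16, Thbs1, C1qtnf7, Lox, Mfap5 and Tmem100. Lmx1b, whose loss causes glaucoma in nail-patella syndrome, was at 115, 132, 197 and 80.0 CPM in the members and 254 to 385 CPM in the other class. Svep1, a matrix protein that binds the Tie receptor system, was at 414, 479, 241 and 224 CPM, 55.2 to 162 times the level of all other nuclei.

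The rule used no age, but it did use the counts of its own genes, so their age differences are a description and not a test. UMIs were summed over the members of each library and 5 months was tested against 2.5 months with edgeR's quasi-likelihood test, 2 libraries against 2. Nothing states that age was the purpose of the series. Of 10907 genes tested, none was higher (0%) and 1, Rps2, was lower (0.00917%) at an adjusted p under 0.05. At an unadjusted p under 0.05 there were 360 higher (3.30%) and 218 lower (2.00%), and DESeq2 called 6 higher and 2 lower. The count depended on each library: it was 20 without donor 1 and 42 without donor 2 of 2.5 months, and 101 without donor 1 and 46 without donor 2 of 5 months, with a lone library taken to vary like the others. The donors also differed in genes of the sex chromosomes. Xist stood at 0, 2160, 28.5 and 2121 CPM, and Uty, a Y-linked gene, at 244, 0, 204 and 0 CPM. Donor 2 of each age was thus high in Xist and donor 1 in Uty. Leaving out 1 library therefore leaves the ages unequal in these genes. Genes called without donor 1 of 2.5 months included Uty, and those called without donor 2 of 2.5 months included Xist. With the donor number as a block 18 genes passed, 12 higher and 6 lower.

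Rps2, a protein of the small ribosomal subunit, stood at 105, 81.7, 8.76 and 8.60 CPM in the members, from 116, 58, 4 and 10 UMIs. The 5-month values lay below both 2.5-month values, with a log2 fold change of -3.40 (SE 0.381, edgeR adjusted p = 0.0344). The same order was present in all other nuclei, at 103, 52.1, 4.33 and 4.57 CPM, and in the Rspo2 and Edn3 fibroblasts, at 105, 66.2, 0 and 8.51 CPM. Rps21 ranked next and did not pass (log2 fold change -2.72, edgeR adjusted p = 0.0570). It was at 240, 158, 24.1 and 33.5 CPM in the members and at 213, 95.1, 14.3 and 18.2 CPM in all other nuclei. Of the 69 ribosomal protein genes tested, 58 had a positive fold change, with a median log2 fold change of 0.33 against 0.0152 for all genes; without donor 2 of 5 months that median was -0.481, and without subgroup 1 it was -0.0302. Rps2 lost its call in 4 settings, while its log2 fold change stayed between -3.57 and -2.95 in them. They included the stricter rule (-3.12, edgeR adjusted p = 0.0707) and the sums without called doublets (-3.01, edgeR adjusted p = 0.289). The others were the sums thinned to 1 depth (-3.57, edgeR adjusted p = 0.12) and those without subgroups 8 to 12 (-2.95, edgeR adjusted p = 0.185). All members called as doublets came from the 5-month libraries, so leaving them out changed only the 5-month sums.

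The other genes of lowest p are given as not passing. On the lower side these included Actn2, a muscle actin-binding protein, and Cryaa, a lens crystallin. Cryaa was at 53.6, 22.5, 0 and 1.72 CPM in the members and at 36.7, 9.12, 0 and 0.117 CPM in all other nuclei, and the lens list summed to 279, 114, 52.6 and 98.9 CPM in the members. Actn2 was at 61.8, 69.0, 13.1 and 9.46 CPM, and the striated muscle list summed to 175, 31.0, 65.7 and 66.2 CPM. The part of lens or muscle RNA in these values was not tested.

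On the higher side the lowest p belonged to Mmp3, Il31ra, Ralyl, Cmss1 and Gm10801, with adjusted p of 0.110 to 0.246 in edgeR. Cmss1, named as a homolog of a ribosomal small subunit factor, was at 409, 803, 2726 and 4406 CPM in the members and at 438, 722, 2138 and 3048 CPM in all other nuclei. It overlaps Filip1l on the other strand. Il31ra, a cytokine receptor, was at 13.6, 14.1, 56.9 and 113 CPM in the members and at 10.1, 14.6, 46.4 and 70.6 CPM in all other nuclei. For both genes the class by age interaction gave a difference near 0 from the Rspo2 and Edn3 fibroblasts, of -0.09 and -0.05 in log2.

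Mmp3 and Gm10801 moved with subgroup 1. Mmp3, at 16.4, 9.86, 70.1 and 205 CPM, fell to 52.6 CPM in donor 2 of 5 months when that subgroup was left out, and its log2 fold change of 3.40 became 2.18. Gm10801 stood at 1.82, 15.5, 56.9 and 296 CPM and at 86.6 CPM in the last library without the subgroup. Ralyl, a neuronal RNA-binding protein, was at 58.2, 73.2, 296 and 181 CPM in the members against 776 to 1176 CPM in all other nuclei, and it leads subgroup 11 with neuron genes.

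**Figure D5:**
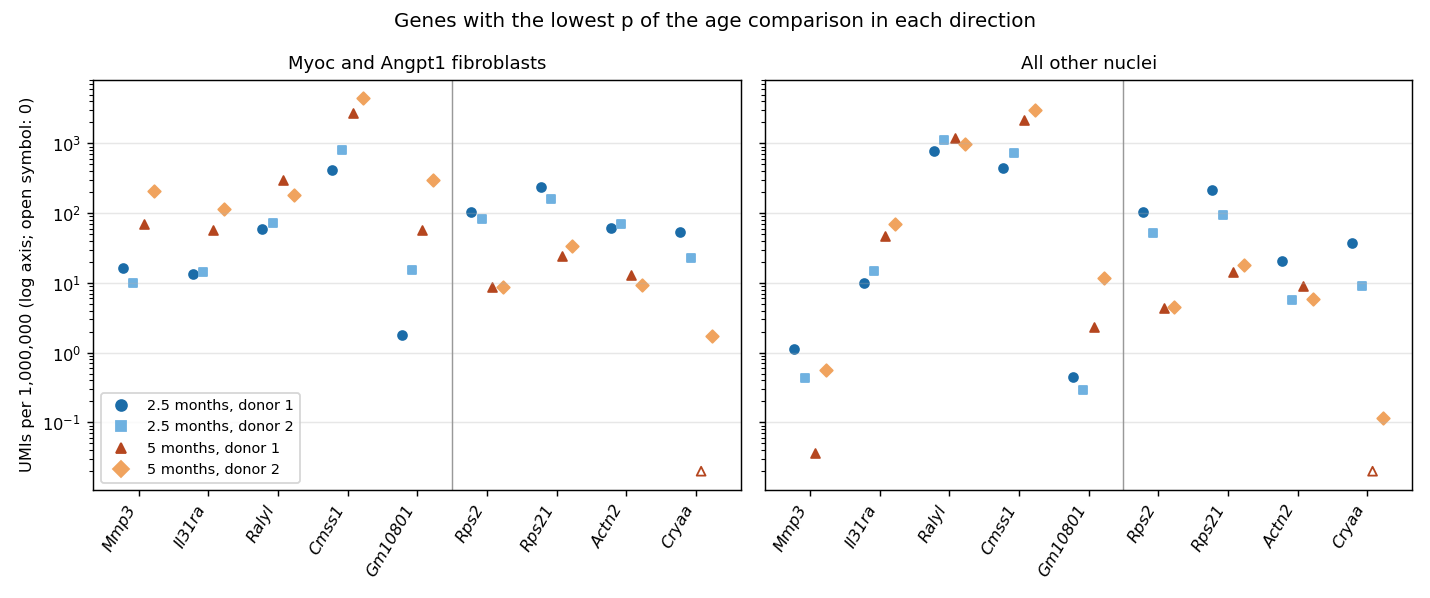
Level in UMIs per 1,000,000 (log axis; an open symbol at the bottom stands for 0) of 9 genes with the lowest p of the age comparison, 5 higher and 4 lower, in the Myoc and Angpt1 fibroblasts and in all other nuclei; each symbol is 1 library. Rps2, Rps21, Il31ra and Cmss1 separate the ages in both panels, while Mmp3 is low in all other nuclei and does not separate them there.

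For the 5 genes on which the nuclei were chosen, the age differences are given without a test. Myoc differed by 0.32 in log2 and Angpt1 by -0.40. Mgp differed by 1.19, Itgbl1 by -0.60 and Adamtsl3 by -0.63. For Mgp the sign rested on donor 2 of 5 months, without which the difference was -0.41. The sign of the Myoc difference also turned without that library, without donor 2 of 2.5 months and without subgroup 1, at -0.15, -0.19 and -0.15.

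No pathway list other than the ribosomal proteins held a gene that passed. Of 13 immediate early genes tested, 2 had a positive fold change, the median was -0.39, and 3 had a negative one with an unadjusted p under 0.05. Over all 10907 genes, 5622 were positive and 2.00% were lower at that level. Matricellular genes had 6 of 24 positive, with 4 lower and 2 higher at an unadjusted p under 0.05 in edgeR and a median of -0.24. Proteoglycans had 4 of 16 positive, with 3 lower and a median of -0.22, and the proteases and inhibitors 12 of 21 positive, with 5 higher and 1 lower and a median of 0.0677. Klf4, of the immediate early list, was at 62.7, 76.0, 19.7 and 30.1 CPM. Fold changes also went with gene length: the median log2 fold change was 0.28 in 1875 genes spanning under 10 kb and -0.12 in 1639 genes of 100 to 300 kb. The intron setting of either version is not given in the sources used here, and this trend and age cannot be told apart.

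Whether age acted differently on the 2 kinds of fibroblast was tested as a class by age interaction over 8 sums with the library as a block. Of 10441 genes tested, 3 passed (0.0287%): Sgcz, Hs6st3 and Nkain3. Sgcz, a sarcoglycan, was at 35.4, 53.5, 120 and 95.5 CPM in the members and at 92.7, 155, 37.2 and 21.3 CPM in the Rspo2 and Edn3 fibroblasts. The 5-month libraries were thus the higher ones in the members and the lower ones in the other class, a difference of 3.38 in log2 (SE 0.382, edgeR adjusted p = 0.00155). Hs6st3, a heparan sulfate sulfotransferase, went the other way, at 79.1, 211, 52.6 and 132 CPM in the members and 40.1, 34.7, 309 and 322 CPM in the other class (difference -3.55, SE 0.466, edgeR adjusted p = 0.00569).

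Nkain3, whose product interacts with the sodium pump, was at 35.4, 25.3, 142 and 28.4 CPM in the members, where 1 library was high, and at 200, 123, 72.2 and 28.4 CPM in the other class (difference 3.00, SE 0.413, edgeR adjusted p = 0.00685). All 3 genes were present in other nuclei, at 383 to 527 CPM for Sgcz, 436 to 811 CPM for Hs6st3 and 109 to 130 CPM for Nkain3. The neuron marker list summed to 957 to 1601 CPM in the members, 1148 to 2140 CPM in the Rspo2 and Edn3 fibroblasts and 5964 to 8308 CPM in all other nuclei. The part of neuron RNA in these 3 results was not tested. The count was 8 and 12 without donor 1 or donor 2 of 2.5 months, 54 and 10 without donor 1 or donor 2 of 5 months, and 3 without subgroup 1. Sgcz and Hs6st3 passed in all of the 8 alternatives run. Nkain3 passed in 7 of them and not without donor 1 of 2.5 months, where the difference was 2.85 (edgeR adjusted p = 0.0575).

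The share of all nuclei that were members was 3.78% (95% exact binomial interval 3.35% to 4.24%), 2.29% (1.96% to 2.66%), 1.59% (1.32% to 1.90%) and 3.98% (3.60% to 4.38%). The libraries of the ages overlapped, with means of 3.03 ± 1.05% at 2.5 months and 2.78 ± 1.69% at 5 months (SD, n = 2; exact permutation test, 2-sided, p = 1). Of fibroblast nuclei they made up 54.4%, 56.5%, 41.2% and 55.8%, or 55.4 ± 1.48% and 48.5 ± 10.3% (exact permutation p = 0.67, n = 2). The smallest p that 2 libraries against 2 allow is 0.33. The share depended on the denominator and on depth. Of nuclei with fewer than 3 rod UMIs the members were 23 of 115 (20%), 19 of 104 (18.3%), 17 of 383 (4.44%) and 132 of 1354 (9.75%), with means of 19.1 ± 1.22% and 7.09 ± 3.75% (SD, n = 2). Here both 5-month libraries lay below both 2.5-month libraries, and the exact permutation p was 0.33. With nuclei thinned to 1000 UMIs the members made up 56.3%, 51.2%, 32.9% and 48.3% of fibroblast nuclei, which again did not overlap between the ages, at 53.8 ± 3.58% and 40.6 ± 10.8% (exact permutation p = 0.33, n = 2). Of all thinned nuclei they made up 2.10% and 1.77% on average (exact permutation p = 0.67, n = 2). Without subgroup 1 the share of fibroblast nuclei in the 5-month libraries was 40.4% and 43.3%, below both 2.5-month libraries. The exact permutation test then gave the smallest possible p. That subgroup was left out after seeing the data and held 0, 0, 4 and 156 nuclei of the libraries. Leaving it out can therefore lower only the 5-month shares, so it tests nothing about age. The intervals cover counting error only, and the amount of fibroblast tissue taken with each retina is not stated.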

How the data were processed

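Deposited whole-number UMI counts per gene and barcode of 4 libraries were used as the authors filtered them; per the file headers they were made with Cell Ranger 7.1.0 (2.5 months) or 4.0.0 (5 months), and per the labels on mm10. All 31053 genes were read, and 30934 identifiers matched GENCODE M21. The selection rule, the gene lists and the tests were chosen with earlier results of these data known. Members were clustered with scanpy 1.11.5 and leidenalg 0.10.2 (resolution 1, 20 principal components, 15 neighbours, 2349 variable genes). Doublets called with Scrublet in scanpy were kept.

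Counts were summed per library and class, scaled by TMM, filtered with filterByExpr and tested with edgeR 4.0.16 (quasi-likelihood, 2 residual degrees of freedom, Benjamini-Hochberg adjustment over all genes tested, threshold 0.05). DESeq2 1.42.0 was an alternative. The scripts were tested on simulated data. Nothing says whether the animals were handled separately beyond the donor numbers, so p-values measure the spread between these libraries. A class at 0 UMIs was set to 3 counts per library in ratios, and smaller counts above 0 were left as they were.

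Genes named for age were those that passed and otherwise the 5 of lowest p in each direction. Between classes they were the 15 with the largest smallest-of-4 ratio, without Gm and Rik models. From each pathway list, genes past the fold were named. Some genes that the rule names are not reported here.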

Additional observations from a re-analysis of the deposited data

Results flagged for a closer look

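For 3 genes the age difference in the Myoc and Angpt1 fibroblasts differed from that in the Rspo2 and Edn3 fibroblasts by the interaction test in edgeR (adjusted p of 0.00155, 0.00569 and 0.00685). The difference in log2 was 3.38 for Sgcz, which had a log2 fold change of 1.31 in the members and -2.04 in the other class. It was -3.55 for Hs6st3, with -0.54 in the members and 3.12 in the other class. It was 3.00 for Nkain3, with 1.36 in the members, where donor 1 of 5 months alone was high, and -1.69 in the other class; without donor 1 of 2.5 months it did not pass (2.85, adjusted p = 0.0575). All 3 are also present in all other nuclei at 109 to 811 CPM, and what RNA of those nuclei contributed was not tested.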

How the results depend on the processing

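With 2 libraries per age, the count of genes that passed the age test (1) depended on most settings. It was 1 with relative log expression scaling, 68 with no filter on low counts, 8 in DESeq2 and 2 with the length trend removed. It was 0 under the stricter rule (sum of at least 5), 0 without called doublets and 0 with sums thinned to 1 depth. Members called as doublets came from the 5-month libraries only, so leaving them out changed only the 5-month sums. The count was 2 among only 158 testable genes when members with at least 3 UMIs in a screened list of another type were left out. Leaving out 1 library each gave 20 to 101. Chosen after seeing the data, leaving out subgroup 1 gave 3, subgroups 8 to 12 gave 0 and both gave 6. With the replicate block the count was 18. The numbers were not shown to pair the libraries over all genes tested (correlation of deviations -0.145). Donor 2 of each age was high in Xist and donor 1 in Uty, so the block joins libraries alike in these genes. A crossed pairing, which joins libraries unlike in them, gave 103. Leaving out 1 library leaves the ages unequal in these genes.

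The interaction count (3) was 60 with no filter, 31 under the stricter rule and 8 to 54 without 1 library. The 307 genes that differed between the classes became 606 at 1.5-fold, 113 at 3-fold, 592 without subgroups 8 to 12 and 592 without both kinds of subgroup, and 213 to 396 otherwise; thinned to 1000 UMIs per nucleus, 7 of the 15 named higher genes remained. The age difference in the share of nuclei was -1.44 to 0.942 percentage points without 1 library, with 0.493 and 0.942 without donor 1 of 2.5 or of 5 months, and that in the share of fibroblast nuclei -14.2 to 0.342. Among nuclei with fewer than 3 rod UMIs the first was -12 against -0.25, and the second was -13.2 thinned to 1000 UMIs against -6.93, both at the smallest exact permutation p of 0.33. Without subgroup 1 the second was -13.6 at the same p, but leaving that subgroup out can lower only the 5-month shares.

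Of 242 values for 15 single genes, 161 kept direction and call, 4 lost and 70 gained a call, and 7 turned sign. Without 1 library the log2 differences were -0.185 to 1.07 for Myoc, -0.885 to 0.0355 for Angpt1 and -0.408 to 1.91 for Mgp. Myoc was at -0.152 without subgroup 1 and -0.066 without both kinds, and Adamtsl3 at 0.00843 among members with few UMIs in the screened lists. The cause was not tested.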
